A study of Mus musculus with 48 samples.

Results

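Sorted brain microglia of old mice were compared with those of young mice across all measured genes. The comparison rests on 16 of the 48 libraries of the study: 8 from mice of 23 months against 8 from mice of 3 months, taken by the group that the labels give each library. All were C57BL/6 wild-type males, and both groups had received vehicle. The study also holds 8 libraries of old brain microglia after depletion with a Csf1r inhibitor and regrowth, and 24 libraries of whole spinal cord in the same 3 conditions. Brains were dissociated after perfusion with buffered saline, cells positive for Cd11b and Cd45 were collected by cell sorting, and polyadenylated RNA was sequenced. The labels name no level of Cd45 at which the sort was set, do not say whether 1 library is 1 mouse, and do not say what the vehicle was. The p-values below therefore measure the spread between libraries, which may be technical in part.

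Microglia are the macrophages that live in the brain. They arise from the yolk sac, depend on signalling through the receptor Csf1r, and in the healthy brain are held in a resting, surveying state in which TGF-beta and factors such as Sall1 maintain genes that other macrophages do not use. Around plaques, dying cells and damaged myelin they are known to lower that program and to raise lipid handling, lysosomal and phagocytic genes, a pattern often called disease-associated. Monocytes, neutrophils and the macrophages of the brain's borders also carry Cd11b and Cd45.

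Levels are given in CPM, the counts of a gene divided by the library's total as scaled by TMM, as the lowest, median and highest of 8 libraries, with young first where the groups are not named. A gene was called where its p from the quasi-likelihood test of edgeR, adjusted by the Benjamini-Hochberg method over 14382 genes, was under 0.05. Total counts were 28373152 to 34496308 in young and 18741936 to 27755121 in old libraries, so the old libraries were all shallower. Genes detected were 15263 to 17524 in young and 13689 to 17647 in old. Old replicate 2 had the lowest total count and lay farthest from the young libraries on the first principal component, and old replicate 7 lay at one end of the second component and had the lowest ribosomal protein share of the old libraries (2.13% of counts, against 3.06% to 4.62% in the other 7). The test was repeated without both, and the counts over all genes and some of the list counts without them are given below.

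The sorted cells carried microglial transcripts in both groups. P2ry12, the receptor by which microglia sense ADP, lay at 3849.7, 4068 and 5092 CPM in young and 2278, 2624 and 3307 CPM in old libraries. Tmem119, a surface marker of microglia, lay at 5052, 5670.3 and 6759.7 CPM and 3347, 3907 and 4373 CPM. Every old library was below every young one for both genes, yet both genes remained abundant in old libraries. Itgam, which encodes the Cd11b used in the sort, lay at 2115, 2387 and 2696 CPM in young and 1973, 2180.3 and 2412 CPM in old and was not called (log2 −0.12, SE 0.06, adjusted p = 0.19). Ptprc, which encodes the Cd45 used in the sort, lay at 199, 244 and 262 CPM in young and 291, 337 and 434.4 CPM in old, above the young range in all 8 (log2 0.52, SE 0.07, adjusted p = 1.5e-06). In bulk RNA, fewer cells of a type and less RNA per cell cannot be told apart.

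Of 14382 genes tested, 3128 differed with age (21.7%), 1587 of them higher in old (11.0%) and 1541 lower (10.7%). The counts of rises and falls given for each list below stand beside these 2 shares. Both directions were near equal in number but not in size. The median called rise was log2 0.99 and the median called fall −0.36, with the median of all genes tested at −0.01. Of the called rises 501 were under 1.5-fold, and of the called falls 1390 were. There were 102 rises of at least 8-fold, while 6 falls reached 4-fold. For 592 genes (4.12%) every old library lay above every young one, and for 3.05% of genes every old library lay below. Counts of list members that did not overlap, given below, stand beside these shares of 4.12% and 3.05%. Rises and falls also differed by level. Among the 2080 genes under 1 CPM, 37 rose and 2 fell, and among the 2638 genes of 1 to 5 CPM, 308 rose and 9 fell. Falls were thus seldom called at low levels, and the 10.7% over all genes is too high a reference for lists of low-level genes. Among the 100 genes at 1000 CPM or more, 23 rose and 45 fell. Without old replicates 2 and 7 the test called 3037 genes, 1611 higher and 1426 lower, and 2759 of these were also called with them. The share of calls that were higher depended on the scaling, at 50.7% here, 60.9% with DESeq2 size factors and 60.5% with total-count scaling. With both the scaling and the test changed, it was 61.4% with the DESeq2 Wald test, and 40.7% and 39.5% with limma on log2(TPM + 1) and log2(TPM + 0.1).

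**Figure D1:**
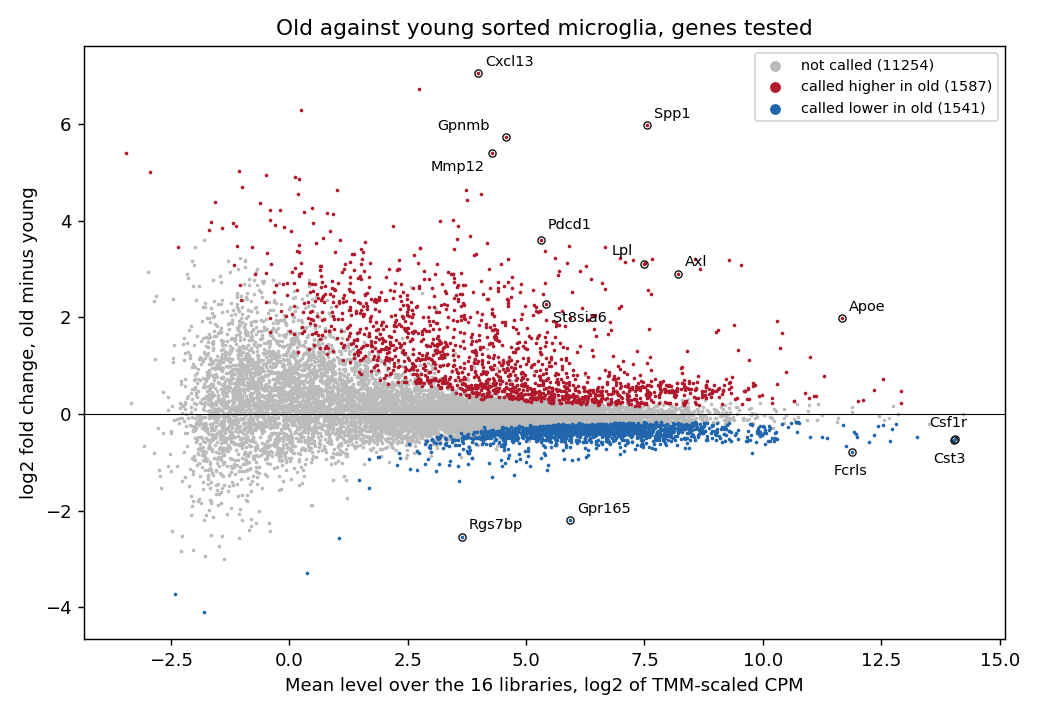
Each point is 1 of 14382 genes, with the mean level over 16 libraries as log2 of CPM on the x axis and the log2 fold change, old minus young, on the y axis. The 1587 called rises (red) reach up to a log2 of about 7 at low and middle levels, and most of the 1541 called falls (blue) lie above −1 and reach the most abundant genes, such as Cst3 and Csf1r.

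Among genes averaging 5 CPM or more, the largest rises named here were in genes at low levels in young microglia. Cxcl13, a chemokine that attracts B cells, lay at 0.0340, 0.124 and 1.19 CPM in young and 16.6, 31.6 and 42.7 CPM in old (log2 7.06, SE 0.52, adjusted p = 5.4e-12). Spp1, which encodes the secreted matrix protein osteopontin, lay at 2.05, 6.12 and 8.09 CPM in young and 297, 359.5 and 467 CPM in old. The genes lie on chromosome 5 of GRCm38 at chr5:95956951-95961068 (Cxcl13) and chr5:104435118-104441050 (Spp1). Neither gene's groups overlapped, and the lowest old library of each was well above the highest young one (for Spp1, log2 5.99, SE 0.20, adjusted p = 3.5e-20). Pdcd1, which encodes the inhibitory receptor PD-1 best known from exhausted T cells, lay at 4.18, 5.07 and 8.98 CPM in young and 60.5, 71.7 and 96.5 CPM in old (log2 3.60, SE 0.15, adjusted p = 5.4e-18). That is a 12.1-fold rise with every old library far above the highest young one. The T cell transcripts Cd3d, Cd3e and Cd3g, named here after their values were seen, were among 12 matched members of the T and NK list that were too low to be tested. All 29 matched members of that list, with those 12 included, summed to 10.9 to 52.4 CPM in young and 26.9 to 101 CPM in old libraries. The part of T cells in the rise of Pdcd1 was not tested. Rxrg, a retinoid X receptor, rose 16.03-fold (log2 4.003, SE 0.21, adjusted p = 1.9e-15). Ass1, which joins citrulline and aspartate on the way to arginine, rose 14.9-fold, from a median of 1.14 to 21.8 CPM. Lox, the enzyme that cross-links collagen and elastin, rose 16.2-fold to a median of 18.02 CPM, with old replicate 2 highest at 37.7. Il1rn, which encodes the antagonist of the interleukin-1 receptor, rose 12.8-fold and Lrg1, a secreted leucine-rich glycoprotein made by neutrophils among other cells, rose 12.3-fold.

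The falls named here came from genes averaging 5 CPM or more, so their middle level follows in part from that floor. Of all genes tested, 6 fell at least 4-fold, and not all of them are named. Rgs7bp, which anchors regulators of G protein signalling at the membrane, lay at 15.8, 20.7 and 28.0 CPM in young and 1.86, 3.61 and 5.93 CPM in old. Gpr165, an orphan receptor on the X chromosome, lay at 80.5, 98.9 and 128 CPM in young and 8.95, 20.1 and 34.9 CPM in old. No old library of either gene reached the lowest young one, and the falls were 5.80-fold (log2 −2.54, SE 0.31, adjusted p = 2.1e-07) and 4.56-fold (log2 −2.19, SE 0.26, adjusted p = 8.3e-08). Peg10, an imprinted gene derived from a retrotransposon at chr6:4747306-4760517, fell 2.48-fold, from a median of 28.3 to 10.9 CPM. Its imprinted neighbour Sgce, at chr6:4674350-4747207, also fell (log2 −0.33, SE 0.06, adjusted p = 0.00023). P2rx1, an ATP-gated ion channel, fell 2.04-fold and Gp9, a platelet glycoprotein gene, 2.12-fold. Mmp15, Myo18b, Klhdc8b, Lrrc4, Prox1, Tmem204 and Bmp1 fell, with log2 changes from −1.38 to −1.04. The 24 genes were taken first from those whose groups do not overlap, so the separation of these genes follows from how they were named.

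Most homeostatic genes were lower in old microglia, and a smaller share of their regulators was. Of 22 homeostatic surface and secreted genes, 20 were lower in old and none higher (median log2 −0.48 against −0.01 over all genes), and 16 of the 22 did not overlap between groups. The 2 that were not called were Trem2 and Pros1. Together the 22 genes summed to 99730 to 117900 CPM in young and 71680 to 87480 CPM in old libraries. Fcrls, an Fc receptor-like gene of microglia, lay at 4356, 4749 and 5116 CPM in young and 2482, 2756 and 3092 CPM in old (log2 −0.78, SE 0.05, adjusted p = 7.1e-13). Siglech, a sialic acid-binding lectin, lay at 1223, 1291 and 1377 CPM and 729, 839 and 949 CPM. Golm1, a Golgi membrane protein gene, lay at 1292, 1349.9 and 1428 CPM and 763, 929 and 1115 CPM. In all 3 the groups were clear of each other. As a difference in TPM, which is a level per unit of gene length, the largest fall of any gene was in Cst3, which encodes the protease inhibitor cystatin C, from 62050 to 41163 TPM (means).

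Among 35 transcription factors of microglial identity and activation, 7 rose and 10 fell (median 0.06). Sall1, the zinc finger factor that maintains microglial identity, lay at 972, 1123 and 1212 CPM in young and 606, 747 and 894 CPM in old (log2 −0.59, SE 0.08, adjusted p = 3e-06). Maf, a factor of tissue macrophages, lay at 325, 367 and 401 CPM and 209, 239 and 328 CPM, with 7 of 8 old libraries below the young range. Mef2c and the retinoid receptor Rxra fell (log2 −0.36 and −0.44). Bhlhe40, a repressor induced in activated macrophages, moved the other way, from 2.75, 3.70 and 5.53 CPM in young to 13.6, 21.5 and 30.4 CPM in old (log2 2.49, SE 0.17, adjusted p = 1e-12). The other risers were the activation factors Relb, Nr4a1, Id2, Atf3, Junb and Fos. Spi1 and Irf8, which specify the macrophage lineage, were not called (adjusted p = 0.16 and 0.73, both named after their values were seen).

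In the TGF-beta pathway, 4 of 28 genes rose and 9 fell (median −0.04). The ligand Tgfb1 (log2 −0.36), the co-receptor endoglin (Eng, −0.71), the signal mediator Smad3 (−0.46) and the target gene Pmepa1 (−0.34) fell. Eng showed the clearest separation, at 371, 430.6 and 511 CPM in young and 239.8, 262 and 306 CPM in old. Acvrl1, a type I receptor, and Tgif1, a repressor of Smad activity, rose by log2 0.45 and 0.51. With limma-voom and quality weights the counts were 7 higher and 11 lower.

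**Figure D2:**
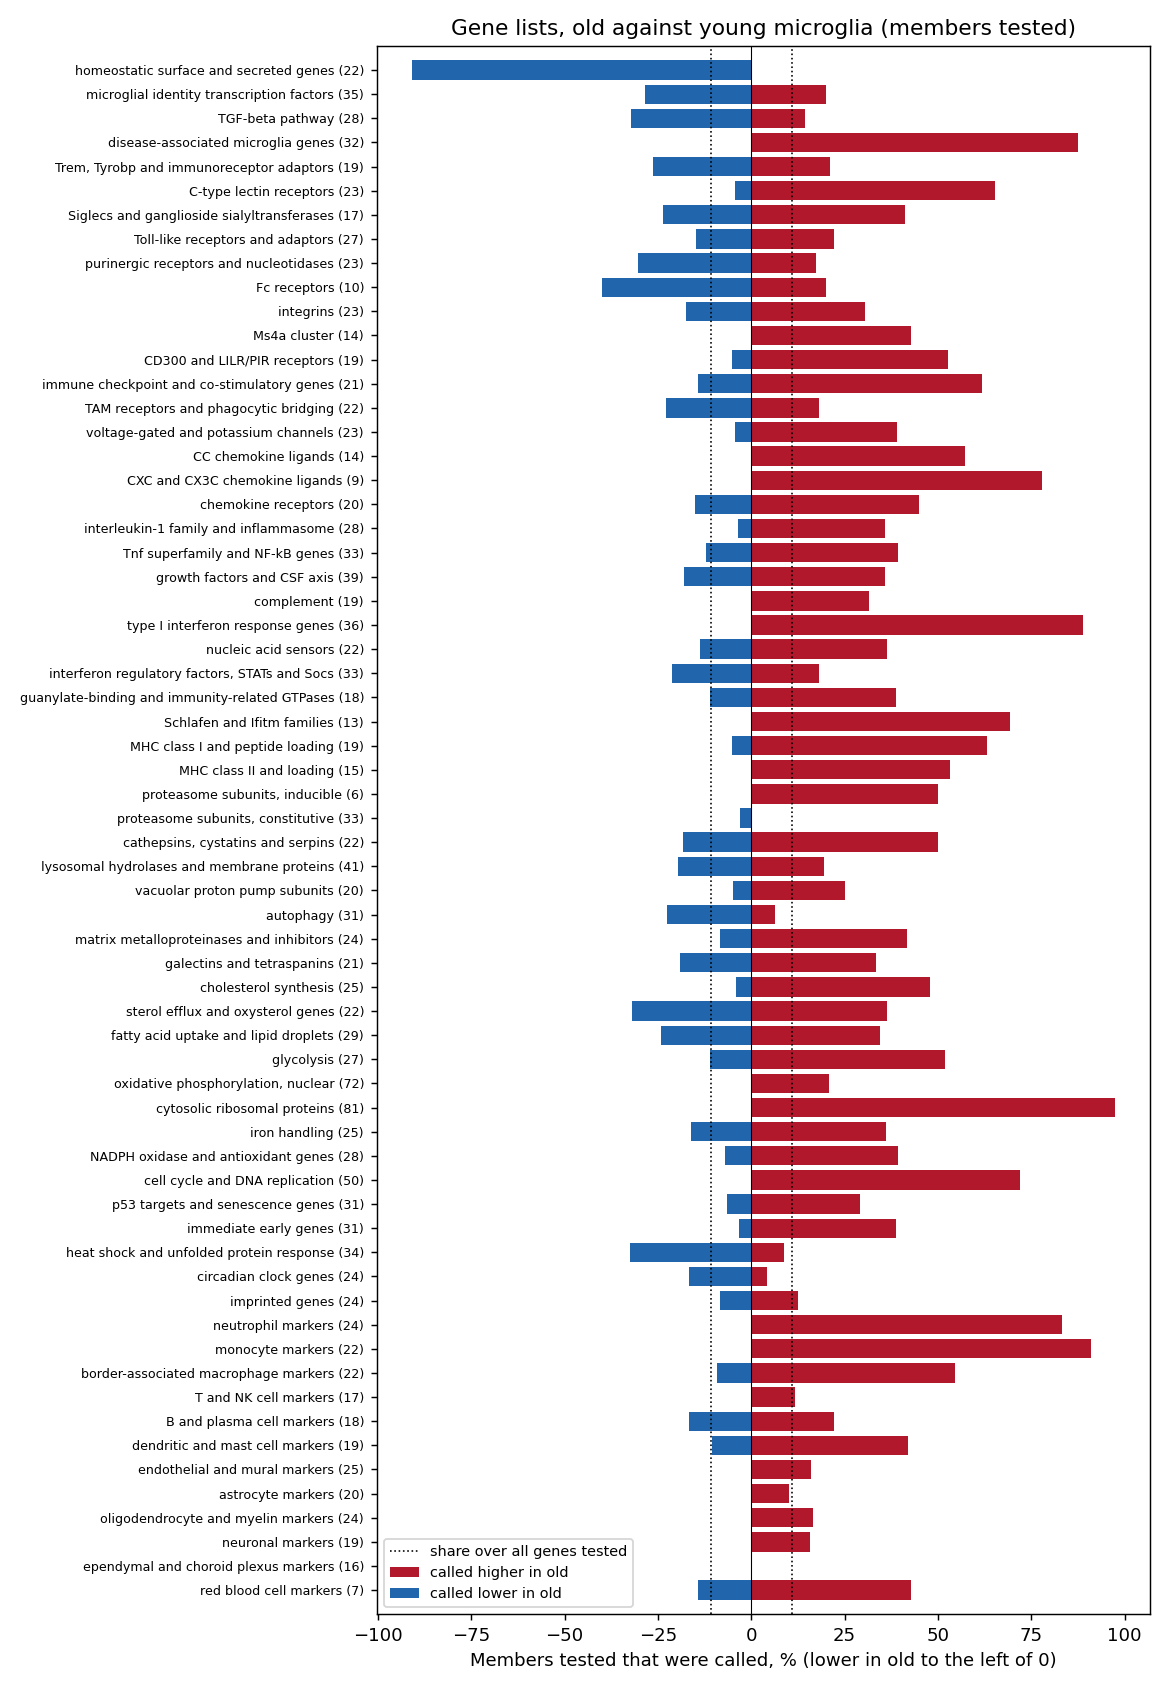
For each of 64 gene lists (members tested in brackets) the bars give the percent of tested members called higher (red, right) or lower (blue, left) in old microglia, and dotted lines mark the 11.0% and 10.7% over all genes. The homeostatic list stands almost wholly to the left, and the ribosomal, monocyte, interferon, disease-associated and neutrophil lists almost wholly to the right.

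Disease-associated genes rose in 28 of 32 cases with no falls (median 1.88), and 26 of the 32 did not overlap between groups. Lpl, which releases fatty acids from lipoproteins, lay at 31.7, 37.2 and 43.4 CPM in young and 276, 314 and 378 CPM in old. Clec7a, the beta-glucan receptor Dectin-1, lay at 25.1, 39.2 and 46.8 CPM and 275, 344 and 372 CPM. Itgax, the integrin chain of CD11c, lay at 23.97, 29.5 and 36.7 CPM and 231, 274 and 315 CPM. No young library of these 3 reached an old one, and the changes were log2 3.10, 3.12 and 3.20 (SE 0.11, 0.11 and 0.13). Cst7, a cystatin family inhibitor, rose 11.2-fold to a median of 102 CPM. The 4 genes that were not called were Trem2, Tyrobp, Ctsd and Cd68, all of them abundant in both groups. Trem2, the lipid-sensing receptor upstream of this program, and Tyrobp, its adaptor, gave log2 −0.10 and 0.23 (adjusted p = 0.41 and 0.076).

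Of 19 Trem family genes and immunoreceptor adaptors, which carry the signal of such receptors, 4 rose and 5 fell. Syk, the kinase recruited by Tyrobp and by Dectin-1, lay at 326, 348 and 386 CPM in young and 178, 236 and 258 CPM in old (log2 −0.63, SE 0.07, adjusted p = 5.1e-08). Inpp5d, the lipid phosphatase SHIP1, lay at 1354, 1512 and 1648 CPM and 928, 1025 and 1204 CPM (log2 −0.52, SE 0.06, adjusted p = 1.2e-07). Both separated fully. The adaptor Blnk and the exchange factor Vav1 fell (log2 −0.39 and −0.25). Treml2 rose by log2 1.17, and so did Trem3, a receptor also found on neutrophils, by 3.29. With the DESeq2 Wald test 7 rose and 5 fell, and with limma-voom and quality weights 7 rose and 7 fell.

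Surface lectins rose in number. Of 23 C-type lectin receptors 15 rose and 1, Clec4a3, fell (log2 −0.30, SE 0.09, adjusted p = 0.011). Cd72, a co-inhibitory receptor, lay at 4.22, 8.15 and 11.1 CPM in young and 30.9, 42.7 and 65.6 CPM in old. Clec1a rose 14.8-fold from a median of 0.472 CPM, and the oxidised lipoprotein receptor Olr1 6.59-fold from 1.23 CPM. The Siglec and sialyltransferase list split, with 7 of 17 higher and 4 lower. St8sia6, an enzyme that makes disialic acid caps, lay at 13.4, 14.3 and 16.01 CPM in young and 59.3, 69.8 and 82.6 CPM in old (log2 2.29, SE 0.08, adjusted p = 2.7e-19). Cd22, a sialic acid-binding inhibitory receptor known from B cells, lay at 19.95, 23.4 and 32.7 CPM and 77.2, 93.9 and 117 CPM (log2 1.99, SE 0.11, adjusted p = 1.2e-14). Both groups were tight and far apart. Siglec1, which is also a marker of border macrophages, rose by log2 1.93, while Siglech and the sialyltransferase St3gal2 fell. The B cell transcripts Ms4a1 and Cd79a, named after their values were seen, had medians of 3.2 and 8.3 CPM in old and were not called (adjusted p = 0.30 and 0.13). The B and plasma cell list gave 4 rises and 3 falls of 18 (median log2 1.16). The part of such cells in the rise of Cd22 was not tested.

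Receptors for engulfment changed in opposite directions within 1 family. Axl, a receptor for the phosphatidylserine bridge protein Gas6, lay at 58.7, 66.5 and 92.7 CPM in young and 482, 525 and 567 CPM in old (log2 2.90, SE 0.11, adjusted p = 2.3e-19). Mertk, its close relative that clears apoptotic cells, lay at 680.0, 782 and 837 CPM in young and 488, 559 and 743 CPM in old (log2 −0.44, SE 0.08, adjusted p = 5.9e-05), with 7 of 8 old libraries below the young range. Elmo1, which couples engulfment receptors to the cytoskeleton, fell from 599, 677 and 735 CPM to 426.5, 449.7 and 469 CPM. In all, 4 of 22 genes of this list rose and 5 fell (7 and 6 with limma-voom and quality weights). Msr1, a scavenger receptor, rose 3.03-fold to a median of 20.2 CPM.

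Among 27 Toll-like receptors and adaptors 6 rose and 4 fell. Tlr2, which detects bacterial lipopeptides, lay at 200.3, 221 and 254 CPM in young and 317, 416.97 and 508 CPM in old (log2 0.85, SE 0.08, adjusted p = 4.5e-10). Tlr8 and the inhibitory kinase Irak3 rose by log2 1.45 and 1.04, and the receptor chaperone Cnpy3 fell by 0.36 (log2). Myd88, the shared adaptor, fell by 0.25 (log2) and was not called without old replicates 2 and 7 (adjusted p = 0.076). This list held 2 falls with DESeq2 size factors or total-count scaling, without young replicate 1 or 5, and without old replicate 2, 4 or 8. It also held 2 falls without old replicates 2 and 7 together, and on log2(TPM + 1) it held 4 rises and 7 falls. In the purinergic list 7 of 23 genes fell and 4 rose, the falls including P2rx1 (log2 −1.03), P2ry12 (−0.66), the ectonucleotidase Entpd1 (−0.55), P2ry13 (−0.47) and the nucleoside transporter Slc29a3 (−0.34). P2rx4, an ATP-gated channel, rose from 84.0, 93.2 and 99.0 CPM to 116, 133 and 152 CPM. Of 10 Fc receptor genes 2 rose and 4 fell, and the call of Fcer1g, 1 of the rises, was lost without old replicate 1, 2 or 4 (adjusted p = 0.0503, 0.0505 and 0.0665). Fcgr4, a low-affinity activating receptor, rose 2.37-fold to a median of 48.3 CPM, while the call of Fcgr3 (log2 −0.19, SE 0.06, adjusted p = 0.034) was lost without any 1 of 12 of the 16 libraries (adjusted p up to 0.136) and, among other settings, with DESeq2 size factors (adjusted p = 0.14). Of 23 integrin chains 7 rose and 4 fell. Itga9 fell (log2 −0.61, SE 0.09, adjusted p = 5.2e-06), and Itgb2, the shared chain of the leukocyte integrins, rose by log2 0.39, as did Itgal, which monocytes and lymphocytes also carry, by 2.12.

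Immune checkpoint and co-stimulatory genes rose in 13 of 21 cases and fell in 3. Besides Pdcd1, the receptors Slamf7 and Slamf9 rose by log2 2.48 and 1.03, and Cd52 rose from a median of 85.9 to 295 CPM. Vsir, which encodes the inhibitory receptor VISTA, fell from 4435, 4723 and 5156 CPM to 2973, 3499 and 3719.6 CPM, without overlap. The Ms4a cluster had 6 of 14 tested genes higher and none lower, among them Ms4a7 (log2 1.73, SE 0.19, adjusted p = 2e-08). Of 19 CD300 and LILR/PIR receptors 10 rose, such as Lilrb4a, an inhibitory receptor, at 3.85, 6.39 and 8.53 CPM in young and 35.3, 42.8 and 60.3 CPM in old. Sirpa, which receives the CD47 signal against engulfment, was the 1 that fell (log2 −0.37, SE 0.06, adjusted p = 3.4e-05). Of 23 ion channel genes 9 rose, including the calcium channel Cacna1a (log2 1.43), the potassium channel Kcnj2 (0.84) and Trpv4 (0.87), and Kcnk6 fell (−0.30).

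**Figure D3:**
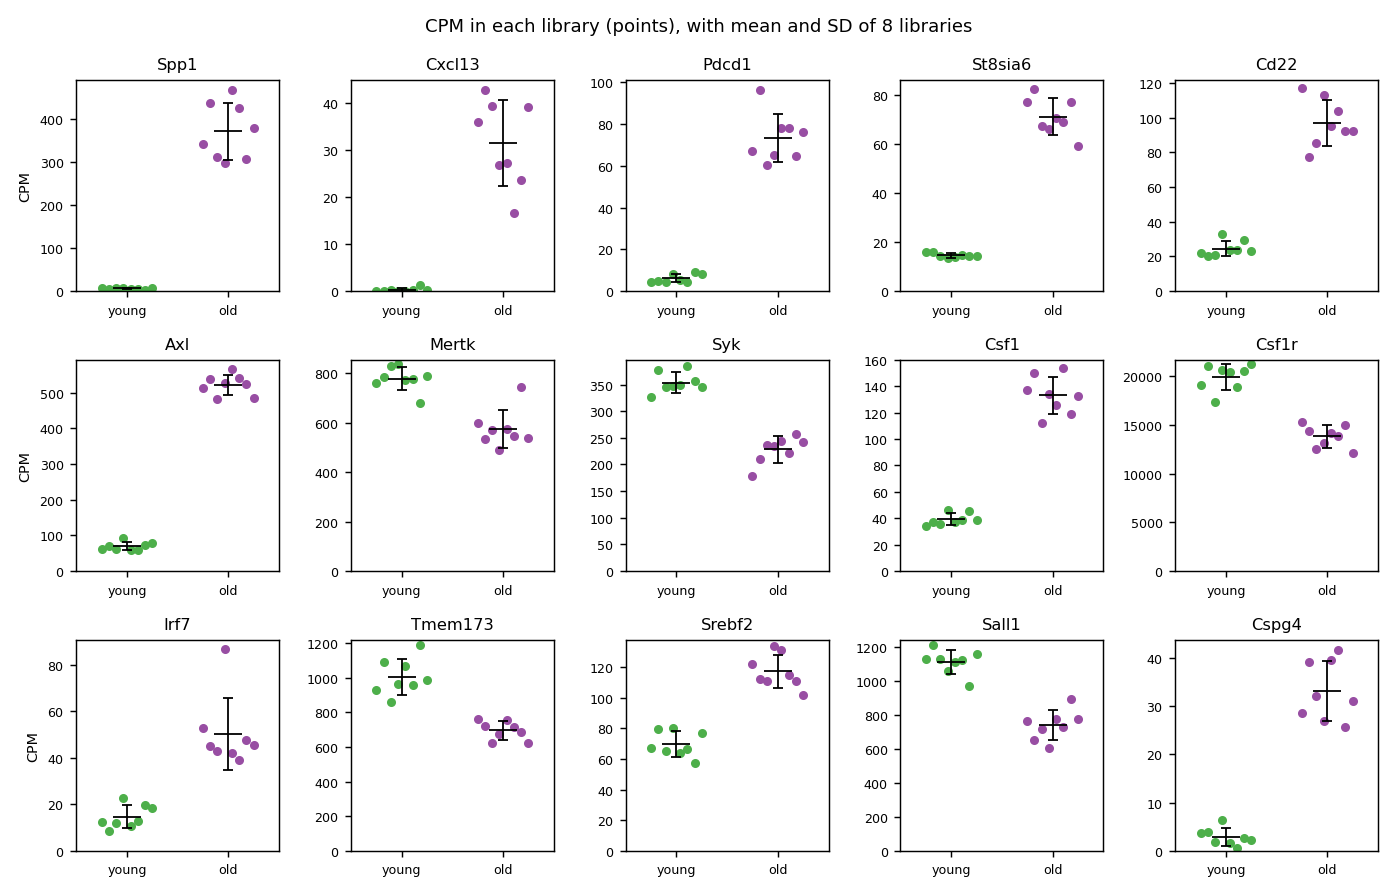
CPM of 15 genes in each of the 8 young (green) and 8 old (purple) libraries, on linear axes that start at 0, with bars for mean and SD. Every old library is outside the young range for 14 of the genes, and for Mertk 7 of 8 are. The genes were picked from those named in the text. Over all genes tested, every old library lay above every young one for 4.12% and below for 3.05%.

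Secreted signals rose far more often than they fell. Among tested chemokine ligands, 8 of 14 CC members and 7 of 9 CXC and CX3C members rose and none fell. Falls were seldom called among low-level genes of any kind, so the lack of falls says little for members at such levels. Ccl3, an attractant of monocytes, lay at 20.2, 24.2 and 34.2 CPM in young and 75.3, 79.9 and 113 CPM in old. Ccl4, its close relative, lay at 15.6, 20.4 and 28.3 CPM and 60.2, 78.8 and 104 CPM. Cxcl16, a membrane-tethered ligand for T cells, lay at 61.6, 67.7 and 79.9 CPM and 125, 162 and 188 CPM. All 3 separated fully, and Ccl3 and Ccl4 are similar enough that reads may be shared. Among 20 chemokine receptors 9 rose and 3 fell, and Cx3cr1, the fractalkine receptor of microglia, was among those that fell (log2 −0.46). The risers with the smallest adjusted p were Cxcr4, Cxcr2, Fpr1 and Fpr2. Cxcr2 is a neutrophil receptor and moved with the neutrophil list between old libraries, from 9.46 CPM in old replicate 5 to 56.9 in old replicate 2.

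Ligand and receptor of the CSF1 axis moved in opposite directions. Csf1, the growth factor for microglia, lay at 34.0, 37.8 and 46.3 CPM in young and 112, 133 and 154 CPM in old (log2 1.77, SE 0.09, adjusted p = 2.7e-16). Csf1r, its receptor, lay at 17293, 20434 and 21250 CPM in young and 12102, 14029 and 15255 CPM in old (log2 −0.53, SE 0.06, adjusted p = 1.4e-08). Neither overlapped. Csf2ra, a chain of the GM-CSF receptor, lay at 42.1, 50.9 and 60.5 CPM and 99.4, 120.3 and 141 CPM. Igf1, a trophic factor, rose 4.78-fold to a median of 21.4 CPM and Il7r fell 1.99-fold. In this list of 39, 14 rose and 7 fell.

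Interleukin-1 family and inflammasome genes rose in 10 of 28 cases and fell in 1. Il1b lay at 6.39, 7.69 and 9.19 CPM in young and 14.4, 37.6 and 76.1 CPM in old (log2 2.38, SE 0.25, adjusted p = 8.4e-09). Nlrp3, the inflammasome sensor, fell from 97.8, 114 and 128 CPM to 72.6, 88.3 and 105 CPM (log2 −0.32, SE 0.08, adjusted p = 0.0017). The decoy Il18bp and the receptor chain Il18rap rose by log2 1.98 and 2.52. Of 33 Tnf superfamily and NF-kB genes 13 rose and 4 fell. Tnf itself lay at 3.98, 5.87 and 13.7 CPM and 15.6, 23.7 and 37.6 CPM. The B cell survival factor Tnfsf13b rose from 20.4, 24.8 and 27.4 CPM to 58.3, 67.7 and 77.6 CPM, with the narrow error of a tight group (log2 1.48, SE 0.08, adjusted p = 1.9e-15). Tnfrsf1b, the second Tnf receptor, fell by 0.39 (log2). In the complement list 6 of 19 rose and none fell. C3 lay at 8.40, 17.9 and 24.5 CPM in young and 146, 170.0 and 263 CPM in old, and C4b at 25.2, 38.2 and 81.1 CPM and 146, 207 and 295 CPM. The abundant first components C1qa, C1qb and C1qc, named after their values were seen, were not called (adjusted p = 0.97, 0.21 and 0.56), and with a length and GC offset 3 members of the list were called lower.

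Interferon response genes were higher in old microglia in 32 of 36 cases, with none lower (median 1.45), and 19 of the 36 did not overlap. Mx2, Ifi205, Dtx3l and Herc6 were not called. Oas1a, a sensor of double-stranded RNA that makes 2′-5′ linked adenylates, lay at 6.65, 8.64 and 12.8 CPM in young and 23.6, 26.3 and 42.7 CPM in old (log2 1.74, SE 0.17, adjusted p = 1.7e-09). Samd9l, an antiviral translation inhibitor, lay at 1.72, 3.94 and 7.46 CPM and 16.4, 24.7 and 33.0 CPM. Both were apart in every library, from low levels in young. Oas and Ifit genes have close copies whose reads may be shared.

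The promoters of these genes were read because interferon-driven genes are known to carry the interferon-stimulated response element, the binding site of Stat and Irf factors. Its core was searched on both strands as GAAA followed by any 2 bases and a second GAAA, in windows of 300 bases (250 before to 50 after each start) from the RefSeq promoter table of GRCm38.p6, which held 11333 of the 14382 genes tested and 27 of the 36 interferon genes. It was present in 15 of the 32 windows of these genes (46.88%), against 3.44% of all 32851 windows, 6.02% of those of called rises and 2.18% of those of called falls. The 3 promoters shown belong to the interferon genes with a match and the smallest adjusted p, each as the 250 bases before the start, 5′ to 3′ on the gene's own strand, with matches in capitals (they read as a pair of TTTC where the match is on the opposite strand). They lie on GRCm38.p6 at chr5:120907526-120907775 on the minus strand (Oas1a), chr19:34583279-34583528 on the plus strand (Ifit3) and chr12:26456453-26456702 on the minus strand (Rsad2).
Oas1a: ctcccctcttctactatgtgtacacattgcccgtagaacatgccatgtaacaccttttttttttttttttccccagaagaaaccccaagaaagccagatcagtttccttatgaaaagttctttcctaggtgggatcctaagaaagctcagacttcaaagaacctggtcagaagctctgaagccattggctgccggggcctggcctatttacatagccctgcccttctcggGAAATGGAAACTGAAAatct
Ifit3: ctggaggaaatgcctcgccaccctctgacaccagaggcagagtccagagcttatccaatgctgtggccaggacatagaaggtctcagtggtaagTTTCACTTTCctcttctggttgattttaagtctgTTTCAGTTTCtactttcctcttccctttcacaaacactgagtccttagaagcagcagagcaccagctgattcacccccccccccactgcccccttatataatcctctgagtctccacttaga
Rsad2: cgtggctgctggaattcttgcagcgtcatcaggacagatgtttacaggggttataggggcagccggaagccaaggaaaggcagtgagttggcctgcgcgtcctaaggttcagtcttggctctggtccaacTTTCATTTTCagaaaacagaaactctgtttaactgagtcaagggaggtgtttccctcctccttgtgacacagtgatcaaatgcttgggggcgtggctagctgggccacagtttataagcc
In Oas1a, 2 overlapping matches end 10 and 4 bases before the start, in Ifit3 there are 2 separate matches 146 and 112 bases before it, and in Rsad2 there is 1 at 110 bases. Of the latter 2, Ifit3, an interferon-induced protein, lay at 11.3, 16 and 29.9 CPM and 41.7, 48.2 and 70.2 CPM (log2 1.57, SE 0.16, adjusted p = 6.5e-09). Rsad2, the antiviral enzyme viperin, lay at 1.94, 3.74 and 5.25 CPM and 6.34, 16.7 and 30.7 CPM (log2 2.27, SE 0.23, adjusted p = 7.4e-09). A match of these letters is a description of the sequence and not a measured binding site. The same scan found the E2F core TTTNNCGC in 26.83% of windows of cell cycle genes against 5.17% of all windows and 7.78% of those of genes tested. The lysosomal E-box TCACGTG was in 26.47% of windows of lysosomal genes against 3.77% and 5.54%, and the sterol element TCACNCCAC in 1 of 22 windows of cholesterol genes (4.55%) against 1.24% and 1.14%.

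The regulators of the interferon response split. Irf7, which amplifies type I interferon, lay at 8.74, 12.5 and 22.6 CPM in young and 39.0, 45.2 and 86.8 CPM in old (log2 1.78, SE 0.20, adjusted p = 5.8e-08), with old replicate 4 highest. Tmem173, which encodes the DNA-pathway adaptor STING, lay at 860.4, 975 and 1187 CPM in young and 621, 700.2 and 759 CPM in old (log2 −0.53, SE 0.07, adjusted p = 4.8e-07). Irf7 was higher and Tmem173 lower in every old library. Ifngr1, Jak1, Stat6 and Irf5 fell (log2 −0.39, −0.27, −0.29 and −0.24). In all 6 of 33 regulators rose and 7 fell. Without old replicate 4 the counts were 3 and 4, without young replicate 2 they were 5 and 4, and with DESeq2 size factors or total-count scaling 6 and 4. Among 22 nucleic acid sensors 8 rose, such as Zbp1 (1.95), and 3 fell. With total-count scaling or DESeq2 size factors 8 rose and 1 fell, without old replicate 4 it was 6 and 1, with limma-voom and quality weights 7 and 6, with a length and GC offset 7 and 5 and on the TPM scale 6 and 5. Of 18 guanylate-binding and immunity-related GTPases 7 rose, among them Gbp6 (log2 2.58), Iigp1 (2.45), Tgtp2 (1.84) and Ifi47 (1.75), and 2 fell, Gbp7 (adjusted p = 0.048) and Irgm2 (adjusted p = 0.026). Neither fall was called with DESeq2 size factors (adjusted p = 0.088 and 0.086), nor without young replicate 2, 5 or 6 or old replicate 2, 3 or 4. The same held without old replicates 2 and 7 together (adjusted p = 0.115 and 0.074). Of 13 Schlafen and Ifitm genes 9 rose and none fell.

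Many antigen presentation genes rose. B2m, the light chain of class I molecules, lay at 1482, 1801 and 2312 CPM in young and 2424, 3141 and 4004 CPM in old (log2 0.78, SE 0.10, adjusted p = 2.9e-07), and 12 of 19 class I genes rose. The 1 that fell, the chaperone Calr, lost its call under most settings (adjusted p from 0.052 to 0.17). Reads of H2-D1, H2-Q4 and H2-Q6 can be shared between near copies. Of 15 class II genes 8 rose. H2-Aa lay at 195, 268 and 496 CPM in young and 660.1, 929 and 2272 CPM in old, with old replicate 4 at 2270 CPM and the other 7 at 1080 CPM or less. The invariant chain Cd74 lay at 406.7, 564 and 1130.5 CPM and 1354, 1823 and 4461 CPM. Of 6 inducible proteasome subunits 3 rose (5 without old replicate 7 and with limma-voom and quality weights), and of 33 constitutive subunits none rose and 1 fell (2 rose and none fell without old replicate 7, and 8 fell with a length and GC offset and 6 on the TPM scale).

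Degradation genes did not move as 1 group. Of 41 lysosomal hydrolases and membrane proteins 8 rose and 8 fell, with 5 falls under DESeq2 size factors and without young replicate 5 or old replicate 8. Cd63, a tetraspanin of late endosomes, lay at 192, 205 and 253 CPM and 319.8, 408.7 and 495 CPM. Npc2 and Gm2a, which encode lysosomal proteins that bind cholesterol and gangliosides, rose by log2 0.53 and 0.48. The sulfatase Arsb and the phospholipase Pla2g15 fell (log2 −0.46 and −0.33), each without overlap. Ctsb, an abundant cysteine protease, lay at 4004, 4249 and 4673 CPM in young and 5028, 6193 and 6876 CPM in old, while Ctse went from a median of 1.32 to 11.8 CPM. Among 31 autophagy genes 2 rose and 7 fell. Ulk1 and Ulk2, the kinases that start autophagy, fell (log2 −0.42 and −0.45), and the cargo receptor Nbr1 fell by 0.43 on the log2 scale. Of 20 proton pump subunits 5 rose and 1 fell (8 and 1 with the DESeq2 Wald test, 3 and 3 on log2(TPM + 1)). Of 24 matrix metalloproteinase genes and relatives 10 rose and 2 fell (4 fell on log2(TPM + 1) and with limma-voom and quality weights). Mmp12, the macrophage elastase, lay at 0.0719, 0.821 and 1.69 CPM and 27.9, 35.9 and 50.2 CPM, and Plaur, the urokinase receptor, at 11.0, 11.98 and 12.6 CPM and 25.8, 41.7 and 52.0 CPM.

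Many genes of cholesterol synthesis rose, while the sterol efflux list was split. Of 25 genes of sterol synthesis and its control 12 rose, and 1 fell, Scap, which escorts the sterol-regulated factors to the Golgi. Srebf2, the master regulator of these genes, lay at 57.5, 66.9 and 80.3 CPM in young and 102, 113 and 134 CPM in old (log2 0.75, SE 0.07, adjusted p = 2.5e-09). The synthesis enzyme Cyp51 rose by log2 1.01. Groups were apart for both. In the sterol efflux list 8 of 22 rose and 7 fell. Apoe lay at 849.7, 1264 and 1732 CPM in young and 3462, 4810.1 and 8405 CPM in old, and Nceh1, which frees stored cholesterol, at 16.6, 20.7 and 27.0 CPM and 44.4, 65.6 and 75.1 CPM. The exporters Abca1 and Abcg1 fell (log2 −0.39 and −0.38). Among 29 fatty acid genes 10 rose and 7 fell (4 fell with DESeq2 size factors and without young replicate 2 or old replicate 2), with the carrier Fabp5 at 1.53, 2.76 and 4.31 CPM and 10.9, 21.4 and 31.4 CPM and the monoglyceride lipase Mgll at 97.3, 112 and 123 CPM and 55.8, 68.6 and 76.1 CPM.

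Glycolysis genes rose in 14 of 27 cases and fell in 3. Slc2a3, a glucose transporter, lay at 8.19, 9.73 and 11.8 CPM in young and 19.7, 32.0 and 43.8 CPM in old, and Pkm, which makes pyruvate, at 404.7, 453 and 516 CPM and 597, 728 and 861 CPM. Hk2, which traps glucose in the cell, and the fructose transporter Slc2a5 fell (log2 −0.30 and −0.33). Nuclear genes of oxidative phosphorylation gave 15 rises of 72 and no falls. This count was 31 without old replicate 7, 27 without old replicates 2 and 7 and 9 without old replicate 4, and with an offset for gene length and GC content it became 3 rises and 8 falls. Cytosolic ribosomal protein genes rose in 79 of 81 cases (median 0.52), all but Rps27 and Rps27l. Yet 1 of the 81 separated the groups fully, and for the others 4 to 7 of the 8 old libraries lay above the young range. Rpsa, for example, lay at 429.4, 479.9 and 547 CPM in young and 505, 783 and 1151 CPM in old, with old replicate 7 lowest at 505. Over the settings tried, 53 to 81 of them rose and none fell.

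The main iron storage gene rose and the iron exporter gene fell. Fth1, the ferritin heavy chain, lay at 1027, 1269.8 and 1529 CPM in young and 1961, 2874 and 3465 CPM in old (log2 1.18, SE 0.11, adjusted p = 6.7e-10). Slc40a1, which encodes the iron exporter ferroportin, lay at 162, 204 and 230.0 CPM and 118, 141 and 160.5 CPM (log2 −0.52, SE 0.09, adjusted p = 4.7e-05). Neither overlapped. Of 25 iron genes 9 rose and 4 fell, and 2 of the rises, Lcn2 and Ltf, are also on the neutrophil list. Cybb, the catalytic chain of the phagocyte NADPH oxidase, lay at 30.7, 55.0 and 88.4 CPM in young and 268, 309 and 440.6 CPM in old (log2 2.57, SE 0.20, adjusted p = 1.1e-11). Gsr, which recycles glutathione, rose 2.76-fold and Gclc, which starts its synthesis, fell 1.33-fold. Neutrophils also use the oxidase, and the summed neutrophil markers were higher in every old library. Between old libraries Cybb did not rank with that sum. Old replicate 8 had the highest sum, 10970 CPM, with Cybb at 286 CPM. Old replicates 5 and 7 had the lowest sums, 3058 and 3126 CPM, with Cybb at 340 and 324 CPM. Old replicate 4, highest for Cybb at 440.6 CPM, had a sum of 7581 CPM. The part of neutrophils in the rise of Cybb was not tested.

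Cell cycle and DNA replication genes rose in 36 of 50 cases with no falls (median 1.38), and 12 of the 50 did not overlap. Top2a, which untangles DNA in dividing cells, lay at 3.29, 4.97 and 9.06 CPM in young and 14.2, 19.9 and 33.0 CPM in old (log2 1.99, SE 0.24, adjusted p = 1.4e-07). E2f2 lay at 3.47, 7.60 and 9.81 CPM and 18.2, 20.8 and 25.6 CPM, and the replication helicase subunit Mcm6 at 12.1, 15.8 and 18.02 CPM and 24.7, 30.1 and 35.6 CPM. The levels were low in both groups. Neutrophil and monocyte markers rose in the same libraries, and their part in these rises was not tested. Among 31 p53 target and senescence genes 9 rose and 2 fell. Cdkn1a, the p21 inhibitor, lay at 13.9, 16.2 and 22.7 CPM and 20.9, 29.4 and 45.4 CPM, with 7 of 8 old libraries above the young range, and Sesn1 fell by 0.39 (log2). Lmnb1, a lamin that is known to fall in senescent cells, rose by log2 1.08. Immediate early genes, which dissociation of tissue can induce, rose in 12 of 31 cases and fell in 1, with Ier2 at 21.0, 28.3 and 39.2 CPM and 41.0, 58.8 and 78.1 CPM. In the heat shock and unfolded protein list 3 of 34 rose and 11 fell (5 and 8 with DESeq2 size factors, without old replicate 3 or without young replicate 6, and 5 and 9 without old replicate 7). Hspa5, the chaperone of the endoplasmic reticulum, lay at 1083, 1149 and 1419 CPM in young and 825, 931 and 1047 CPM in old, and Hsf1, the factor that drives the cytosolic heat shock response, fell by 0.43 (log2). Asns and Trib3, targets of the amino acid response, rose by log2 2.03 and 2.298. Circadian genes gave 1 rise and 4 falls of 24, against 11.0% higher and 10.7% lower over all genes. Imprinted genes gave 3 rises and 2 falls of 24, near the shares over all genes (11.0% higher and 10.7% lower), with Igf2r at 2.37, 3.84 and 6.99 CPM in young and 9.85, 18.3 and 24.5 CPM in old.

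Transcripts of other myeloid cells were higher in the old libraries. Of 24 neutrophil markers tested 20 rose and none fell (median 2.84). All 26 matched markers of the list summed to 851 to 1719 CPM in young and 3058 to 10970 CPM in old libraries. Old replicates 5, 6 and 7 were lowest at 3058, 3520 and 3126, and old replicate 8 was highest. S100a8, which neutrophils store in bulk, lay at 36.4, 79.7 and 197 CPM in young and 259.8, 772 and 1427 CPM in old, and Ngp, a granule protein gene, at 48.6, 118 and 225 CPM and 537, 1129 and 2162 CPM. Of 22 monocyte markers 20 rose, with a sum of 183 to 444.4 CPM in young and 849 to 2050 CPM in old. Border-associated macrophage markers rose in 12 of 22 cases and fell in 2, while their sum overlapped, at 1817 to 2539 and 1762 to 2677 CPM. The part of these cells in the rises of receptor, chemokine, interleukin-1, class II, oxidase and cell cycle genes was not tested.

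**Figure D4:**
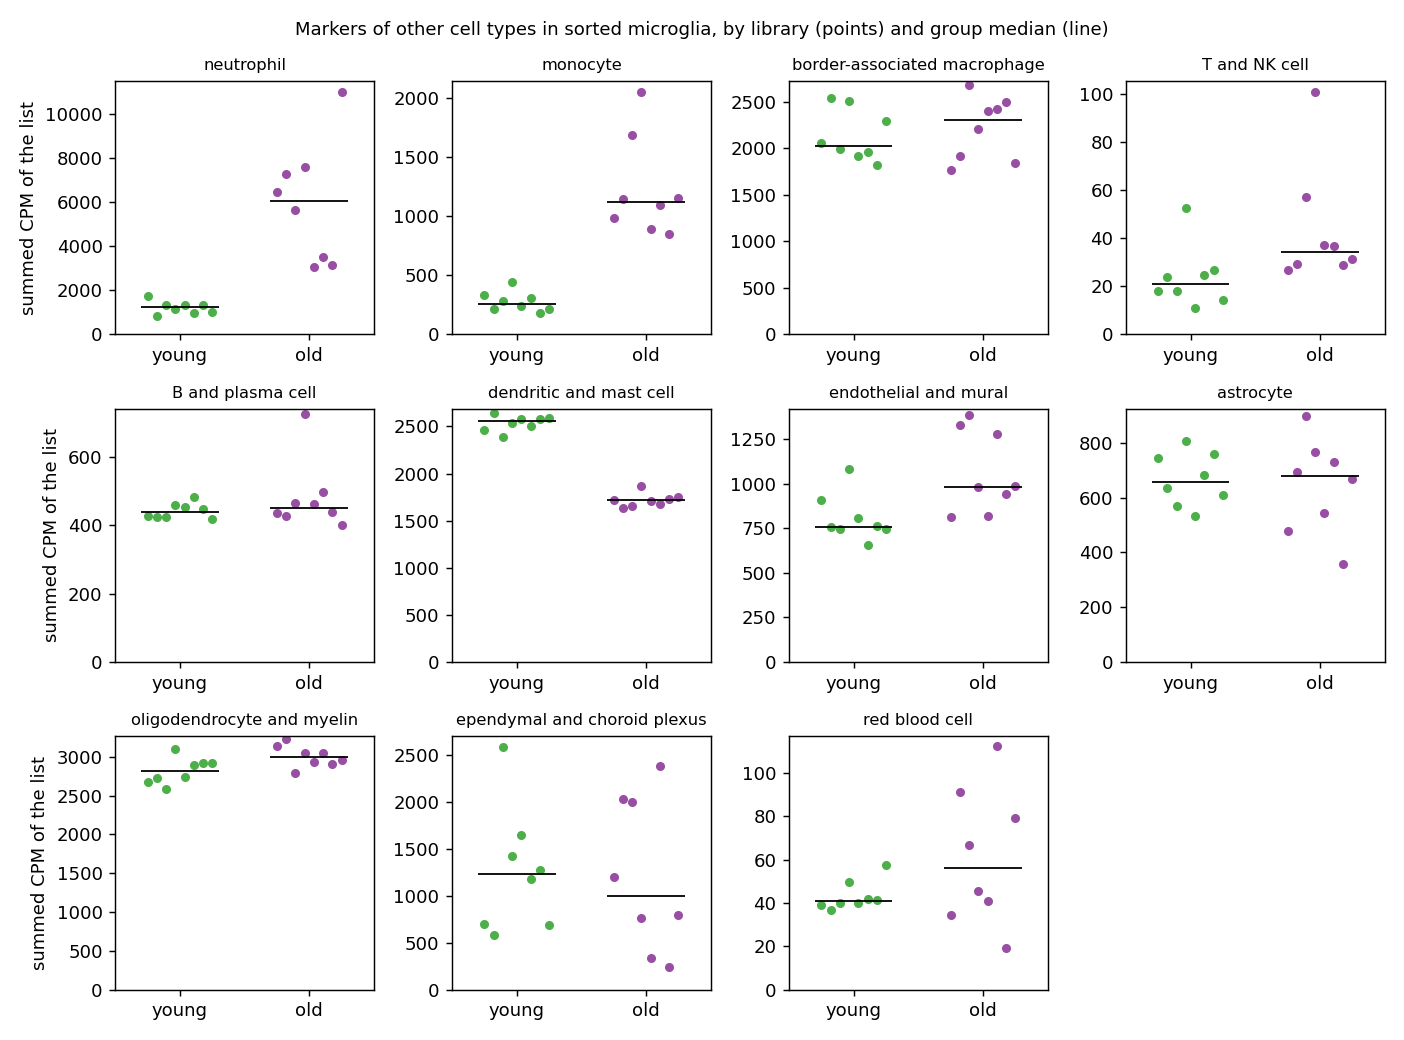
Summed CPM of marker lists of other cell types in each young (green) and old (purple) library, with a line at the group median and axes from 0. Neutrophil and monocyte sums lie higher, and the dendritic and mast cell sum lower, in every old library, while the border-associated macrophage, astrocyte and other sums plotted overlap.

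Lists of lymphoid, dendritic and other brain cells held a smaller share of rises than the neutrophil and monocyte lists. Over all genes tested 11.0% were higher and 10.7% lower. Of 17 T and NK markers 2 rose (4 with limma-voom and quality weights), and the call of Ccl5, 1 of these, was lost without old replicate 4 (adjusted p = 0.158) or any of young replicates 1, 2, 3, 5, 6 and 8 (0.052 to 0.057). B and plasma cell markers gave 4 rises and 3 falls of 18. Jchain, the joining chain of secreted antibodies, was at 120 CPM in old replicate 4, at 34.8 or less in the other old libraries and at 0 in old replicate 7. The dendritic and mast cell sum fell from 2386 to 2639 CPM in young to 1636 to 1868 in old, which is the sum of Fscn1 and Siglech for the most part, both abundant in microglia themselves. Of the 19 tested members of this list 8 rose (5 without old replicate 4), among them Hdc, which makes histamine. Flt1, a receptor of endothelial cells, lay at 11.4, 16.8 and 47.6 CPM in young and 43.8, 79.7 and 119.9 CPM in old. Of 25 endothelial and mural markers 4 rose, and this count ranged from 2 to 13 with the setting and was 2 or 8 without any 1 of young replicates 3 to 8 or old replicates 2, 3, 5 and 6. Cspg4, a proteoglycan of pericytes and oligodendrocyte precursors, rose from 0.535, 2.43 and 6.33 CPM to 25.7, 31.6 and 41.6 CPM, far apart in every library. Of 24 oligodendrocyte markers 4 rose, with Mbp at 63.2, 87.1 and 131 CPM and 154, 209.8 and 369 CPM, and of 16 ependymal and choroid plexus markers none was called. Of 20 astrocyte markers 2 rose, and the call of S100b, 1 of these, was lost without any 1 of young replicates 5, 6 and 8 and old replicates 2, 3, 4 and 8 (adjusted p from 0.0507 to 0.113). Of 19 neuronal markers 3 rose and 16 were not called.

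Old libraries varied more among themselves than young ones. The standard deviation of log2 CPM was larger in old for 82.9% of genes, with a median ratio of 1.53, and without old replicates 2 and 7 for 72.2%, with a ratio of 1.33. The homeostatic list had a ratio of 1.43, while that of the interferon list was 1.02. Jchain, Gh, Fcnb, Hbb-bs and Ehd2 were the called genes of at least 5 CPM with the largest spread within old. Gh, the growth hormone gene, was at 53.7 and 49.4 CPM in old replicates 1 and 2 and at 0.815 CPM or less in the other 6 old libraries, and it was not called by limma-voom with quality weights (adjusted p = 0.155) or by limma on log2(TPM + 1) and log2(TPM + 0.1) (adjusted p = 0.159 and 0.131).

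Whole spinal cord of the same ages gave a reference for the 24 genes named by size, tested as the difference between the age changes of both tissues over 48 libraries. The 24 genes were chosen for large changes in microglia, which in itself favours a difference from cord, so their count is a description. The difference passed the test for 20 genes, 9 rises and 11 falls, against 20.5% of all genes tested in that fit. In cord, 8 of the 12 rises were also called higher (4.88% of all genes tested there) and none of the 12 falls was called lower (1.26%), with Gp9 too low to be tested there. Pianp, a ligand of paired inhibitory receptors, went from 68.0 ± 10.7 to 71.6 ± 6.55 CPM (mean and SD, n = 8) in cord, where it was not called (adjusted p = 0.79), and rose by log2 4.63 in microglia (difference log2 4.40, SE 0.22, adjusted p = 4.3e-20). Lox fell in cord, from 39.5 ± 7.19 to 15.9 ± 3.01 CPM (difference 5.16, SE 0.32, adjusted p = 3.7e-17). The age changes of Cxcl13, Gpnmb, Pdcd1 and Myo18b did not differ past the threshold (adjusted p = 0.90, 0.080, 0.73 and 0.061). For Cxcl13, at means of 0.0084 and 0.66 CPM in young and old cord, the difference was 1.46 with an SE of 3.95. Its test can therefore not decide whether the changes differ. The difference for Pdcd1 was −0.19 (SE 0.27). For Pdcd1 the cord went from 0.055 ± 0.050 to 0.71 ± 0.11 CPM. Cord holds many cell types, so its value for a gene is not that of its microglia.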

How the data were processed

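Polyadenylated RNA was sequenced from 48 libraries, of which the 16 of young and old microglia were compared. The authors deposited gene counts, TPM and FPKM. Reads were aligned with STAR 2.5.2b to GRCm38.p5, per the submitters' processing notes. The sources used here name no counting tool. Tests ran on the counts as deposited, while the deposited TPM values served for comparing levels between genes and for limma on log2(TPM + 1) and log2(TPM + 0.1), and FPKM was not used. The table held 35870 genes, 17 without a symbol. The kit did not mark strand, so overlapping and antisense genes cannot be told apart, and near-identical copies may share reads.

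Counts were fitted with edgeR 4.0.16 (R 4.3.3; TMM, filterByExpr with a minimum count of 10, quasi-likelihood test) over the 24 microglia libraries, with old minus young as the contrast and Benjamini-Hochberg adjustment at 0.05. Alternatives used limma 3.58.1, DESeq2 1.42.0, other scalings and filters, a replicate block, a length and GC offset (GC known for 92.6% of genes) and left-out libraries. The alternatives for the spread between libraries were chosen after seeing the data. On simulated data of 13769 genes for this contrast, 55% of changes of log2 0.5 and 91% of changes of log2 1 were recovered, with 7 false calls. The planted changes were only in genes averaging 5 CPM or more, and both groups were simulated with equal spread. Recovery at lower levels, and error under the wider spread of old libraries (median ratio 1.53), was not tested.

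Gene lists and members were chosen with earlier results of these data known. Named genes were the 12 largest rises and 12 largest falls of at least 5 CPM, first those whose groups do not overlap, the 8 largest rises and 8 largest falls in TPM, up to 4 called members of each list in its main direction and 2 in the other by adjusted p, the 2 most abundant markers of each other cell type, the 5 called genes most variable in old, and Csf1r, P2ry12, Tmem119, Itgam and Ptprc. Coordinates are from GENCODE M21 and promoters from RefSeq. Some genes that this rule names, and results that need them, are not reported here.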

Additional observations from a re-analysis of the deposited data

Results flagged for a closer look

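Of 118 checks for a single library far from the other 7 of its group, 13 found one, and chance flags about 1 in 20 groups. Young replicate 7 was the library in 5 of them. It was highest for Cxcl13 at 1.19 CPM (next 0.20), lowest for Spp1 at 2.05 CPM (next 4.40), and lowest for Mmp12 at 0.0719 CPM. It was highest for Cst3 at 23700 CPM and had the highest ribosomal protein share of the young libraries, 2.79% of counts. Young replicate 5 was lowest for Ch25h at 0.411 CPM, and young replicate 2 lowest for Lrg1 at 0.238 CPM. Old replicate 2 was highest for Lox at 37.7 CPM, lowest for Myo18b at 4.43 CPM and Bmp1 at 2.06 CPM, and lowest in total counts at 18700000. Old replicate 1 was lowest for Klhdc8b at 17.0 CPM. Old replicate 4 had the highest sum of B and plasma cell markers, 726 CPM.

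The age change in microglia differed from that in whole spinal cord, by a test of the difference itself, for 20 of the 24 genes named by size. These genes were chosen for large changes in microglia, which in itself favours a difference, and over all genes tested in that fit 20.5% differed. The differences below are log2, microglia minus cord. Spp1 differed by 5.18, Lox by 5.16, Pianp by 4.40, Ass1 by 3.53, Rxrg by 3.43, Ch25h by 3.14, Lrg1 by 3.08 and Il1rn by 1.71. Mmp12 rose in both tissues and by more in cord, with a difference of −1.72. Among the genes that fell in microglia, Rgs7bp differed by −2.48, Gpr165 by −2.09, Peg10 by −1.50, Mmp15 by −1.41 and P2rx1 by −1.38. Prox1 differed by −1.30, Gp9 by −1.28, Lrrc4 by −1.27, Klhdc8b by −1.23, Bmp1 by −1.10 and Tmem204 by −1.08. None of these falls was called in cord, where Gp9 alone was too low to be tested on its own.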

How the results depend on the processing

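Old against young gave 3128 calls (3375 from a fit of the 16 libraries compared alone), and every setting tried gave between 2658 (without young replicate 2) and 4085 (limma-voom with quality weights). A replicate block gave 2909 calls. Samples of equal number did not deviate together (pair correlations −0.116 to 0.132, 1 of 8 over 0.1), and 1 young library correlated best with its own number. On log2(TPM + 0.1) the median of all genes lay at −0.129, against −0.01. The excess spread of old libraries, a median ratio of 1.53, was 1.33 without old replicates 2 and 7, 1.42 over genes of at least 100 CPM and 1.27 with both restrictions. Fcer1g, the signalling chain of Fc receptors, was called higher but lay at log2 −0.00345 once gene length and GC content were offset (adjusted p = 0.977), and the cause was not tested. Depth limits genes under 1 CPM, and all old libraries were shallower than the young ones.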

Other observations

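Galectin and tetraspanin genes rose in 7 of 21 cases and fell in 4, against 11.0% and 10.7% over all genes. Lgals3, which encodes galectin-3, a lectin of activated macrophages, rose (log2 2.95, SE 0.19, adjusted p = 4.6e-13), and Lgals3bp, its secreted partner, rose (log2 1.32, SE 0.11, adjusted p = 1.1e-10). Cd9, a tetraspanin of the plasma membrane, rose less (log2 0.59, SE 0.08, adjusted p = 6.8e-07), and Tspan14 fell (log2 −0.42, SE 0.07, adjusted p = 1.4e-05). The falls of this list numbered 2 with DESeq2 size factors and without young replicate 5 or 7 or old replicate 8, and 8 on the TPM scale.

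Among cathepsins, cystatins and serpins 11 of 22 rose and 4 fell, the falls being Cst3, Ctsf, Lgmn and Serpinf1, which encodes the secreted serpin PEDF (log2 −0.57, SE 0.10, adjusted p = 7.8e-05).

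Red blood cell markers gave 3 rises and 1 fall of 7, and 1 rise and 1 fall with a replicate block, a length and GC offset, or without young replicate 5, 6 or 7 or old replicate 2 or 6. Hbb-bs, a beta globin gene, lay at 1.26, 4.59 and 15.2 CPM in young and 0.184, 16.8 and 44.5 CPM in old, with overlap between the groups. Reads of Hba-a1 and Hba-a2, near-identical alpha globin genes, can be shared.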
